A study of Mus musculus with 221 samples.

Results

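The subject of this report is the expression of 9 glycolytic genes, Hk1, Hk2, Aldoa, Tpi1, Pgk1, Eno1, Eno2, Ldha and Ldhb, in single cells of the mouse neocortex shortly before birth. They were taken by gene symbol from the 23244 features of the deposited expression table, all 9 were found, and each had a value in all 221 cells. Of the 9, 6 form pairs of isoenzymes, proteins from separate genes that catalyse the same step: the hexokinases Hk1 and Hk2, the enolases Eno1 and Eno2, and the lactate dehydrogenase subunits Ldha and Ldhb.

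Glycolysis breaks glucose down to pyruvate, and lactate dehydrogenase interconverts pyruvate and lactate. Isoenzymes often differ between dividing and differentiated cells: Ldha is known as the subunit that favours making lactate and Ldhb as the one that favours using it, Hk1 is the common hexokinase of the brain and Hk2 an inducible form, and Eno2 is known as neuron-specific enolase. In the cortex, radial glia are the stem cells, intermediate progenitors are their dividing offspring, and interneurons migrate in from the ventral forebrain.

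The cells came from the microdissected medial neocortex of C57BL/6J embryos at day E18.5, in 2 pools of 8 neocortices each, with 99 cells from pool 2 and the rest from pool 1, and the labels name no treatment. The labels call all 221 cells female, whereas transcripts of Y-linked genes were above the floor in 99 of them. By its title, the study concerns Hopx, a homeodomain protein, in basal radial glia. Values are TPM, transcript levels corrected for transcript length and scaled to a fixed total per cell, so levels of different genes can be compared; the lowest value of a cell, its floor (1.33 to 2.998 TPM), stands for no signal, and a gene above it is called detected.

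The labels give no cell types, so classes were rebuilt from marker genes that include none of the 9. They are a radial glia-like class of 16 cells (8 in each pool), an intermediate progenitor-like class of 6 (2 and 4), a newborn neuron-like class of 30 (23 and 7), an interneuron-like class of 27 (16 and 11) and an excitatory neuron-like class of 125 (65 and 60). The remaining 17 cells were not named. Slc1a3, Fabp7, Vim and Hes5, defining markers of radial glia, were detected in 16 of 16 radial glia-like cells and in 6 of 6 intermediate progenitor-like cells. Fabp7 was also detected in 120 and Hes5 in 59 of 125 excitatory neuron-like cells. Intermediate progenitor-like cells had Eomes in 6, Neurog2 in 5 and Neurod1 in 0 of 6, and Neurod6 at 100 TPM or more in 5. In radial glia-like cells Sox2 was detected in 11 and Pax6 in 12 of 16, and Hopx was among the leading genes of that cluster. Markers of other cells were present there too: the neuronal gene Neurod6 stood at 100 TPM or more in 7 of the 16 cells, and the summed markers of oligodendrocyte precursors had a median of 164 TPM (range 0 to 2226), against a median of 0 TPM in excitatory neuron-like cells (range 0 to 384). The summed astrocyte markers, Gfap and Aldh1l1, had a median of 74.7 TPM (range 0 to 495), against 0 TPM in excitatory neuron-like cells (range 0 to 187), and were detected in 7 and 5 of the 16 cells. The part of these markers in the results on radial glia-like cells was not tested, although values without the cells rich in Neurod6 are given. Detected genes per cell had a median of 4692 in radial glia-like, 4072 in newborn neuron-like, 3409 in interneuron-like and 4037 in excitatory neuron-like cells. Read numbers are not given in the sources used here, so the depth of each cell is unknown.

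The genes lie on different chromosomes (mouse assembly GRCm38, GENCODE M21 annotation, all protein-coding). Ldha spans chr7:46841475-46855627 on the plus strand, and Ldhb spans chr6:142490249-142507957 on the minus strand. Hk1 lies on chromosome 10, Hk2, Eno2 and Tpi1 on chromosome 6, Aldoa on chromosome 7, Eno1 on chromosome 4 and Pgk1 on chromosome X. The promoters of the lactate dehydrogenase pair are shown because, of the 3 isoenzyme pairs among the 9 genes, this one differed most in balance in all 3 comparisons with excitatory neuron-like cells. They are 300-base windows around the annotated start from RefSeq (GRCm38.p6), given 5′ to 3′ on the gene's strand, with ACGTG or its reverse complement CACGT, the core of the hypoxia response element, in capitals.
Ldha promoter, chr7:46845554-46845853, plus strand: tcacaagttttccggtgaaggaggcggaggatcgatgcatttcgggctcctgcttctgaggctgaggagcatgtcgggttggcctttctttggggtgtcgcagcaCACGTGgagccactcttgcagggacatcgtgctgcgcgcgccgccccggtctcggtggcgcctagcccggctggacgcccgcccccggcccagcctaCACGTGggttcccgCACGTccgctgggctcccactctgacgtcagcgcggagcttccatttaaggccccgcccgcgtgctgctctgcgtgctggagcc
Ldhb promoter, chr6:142507908-142508207, minus strand: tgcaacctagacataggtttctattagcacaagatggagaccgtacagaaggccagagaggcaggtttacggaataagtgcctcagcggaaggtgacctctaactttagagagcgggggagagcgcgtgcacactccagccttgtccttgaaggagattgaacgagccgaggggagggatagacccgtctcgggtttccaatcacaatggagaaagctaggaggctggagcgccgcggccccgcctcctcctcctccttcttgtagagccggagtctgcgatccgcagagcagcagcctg
The Ldha window holds the core at 3 places; at 2 of them it reads CACGTG, in which the core overlaps itself on both strands and which is also a canonical E-box. The Ldhb window holds none, and neither does a second annotated Ldha promoter. Of all 32851 promoter windows in the RefSeq table, 19.6% hold ACGTG on either strand and 7.15% hold CACGTG. Windows of Pgk1 (2 places), Hk2 (2), Aldoa (1, in 2 overlapping windows of its 3) and 1 of the 2 Hk1 promoters (2) also held the core, and those of Eno1, Eno2 and Tpi1 did not. These matches describe letters only and say nothing about binding.

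In both pools, radial glia-like cells on average carried more Ldha relative to Ldhb than any class of neurons. Interneuron-like cells on average carried less than excitatory neuron-like cells in both pools. Newborn neuron-like cells averaged less too, but in pool 2 this rested on 1 of 7 cells. Ldha averaged 1164 and 770 TPM in radial glia-like cells of pools 1 and 2, 627 and 1065 TPM in intermediate progenitor-like, 292 and 453 TPM in newborn neuron-like, 214 and 123 TPM in interneuron-like, and 519.5 and 371 TPM in excitatory neuron-like cells. Its lowest, median and highest values were 289, 811 and 2361 TPM in radial glia-like cells, against 1.68, 383 and 1963 TPM in excitatory neuron-like cells. The radial glia-like pool means exceeded both excitatory neuron-like ones, whereas the single cells of the classes overlapped. For Ldhb the values ran the other way in radial glia-like cells, with 319 and 278 TPM, against 419 and 479 TPM in excitatory neuron-like cells. Newborn neuron-like cells averaged 716 and 695 TPM of Ldhb. In pool 1 Ldhb ran opposite to Ldha there, whereas in pool 2 both genes exceeded their excitatory neuron-like means. Interneuron-like cells averaged 290 and 503 TPM of Ldhb.

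Within a cell, the log2 level of Ldha minus that of Ldhb, with undetected genes at the floor, removes what scales both where both are detected. In radial glia-like cells it averaged 2.43 in pool 1 and 2.17 in pool 2, and Ldha was the higher of the pair in 14 of 16 cells (87.5%, exact 95% interval 61.7 to 98.4%). In intermediate progenitor-like cells it averaged 0.23 in pool 1, from 2 cells, and 1.0 in pool 2, from 4, with Ldha higher in 4 of 6. In newborn neuron-like cells it averaged -2.18 and -2.01, with Ldha higher in 6 of 30 cells (20%, 7.71 to 38.6%), and in interneuron-like cells -2.04 and -3.40, with Ldha higher in 7 of 27 (25.9%, 11.1 to 46.3%). In excitatory neuron-like cells the values were 0.11 and -1.08, with Ldha higher in 58 of 125 cells (46.4%, 37.4 to 55.5%). Radial glia-like pools thus lay above 0 and above both excitatory neuron-like pools, and the newborn neuron-like and interneuron-like pools lay below both. In pool 2 of the newborn neuron-like class, 1 cell without detected Ldha stood at -8.08. The other 6 cells of that pool averaged -0.998, which is not below the excitatory neuron-like -1.08. Only Ldhb was detected in 10 of 27 interneuron-like, 2 of 30 newborn neuron-like and 7 of 125 excitatory neuron-like cells. Only Ldha was detected in 2 of 16 radial glia-like cells. Such cells weigh on the means. Median balances over cells were 2.12 in radial glia-like, -1.41 in newborn neuron-like, -0.95 in interneuron-like and -0.17 in excitatory neuron-like cells.

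Set against excitatory neuron-like cells, the balance differed by 2.79 ± 0.65 in radial glia-like cells (SD of the 2 pool differences, 2.33 and 3.25), by -1.61 ± 0.96 in newborn neuron-like cells and by -2.24 ± 0.12 in interneuron-like cells. In the exact two-sided permutation test over pools each of the 3 gave p = 0.33, which is the smallest p that 2 pools against 2 allow. The radial glia-like value was lower without the cells that held Neurod6 at 100 TPM or more. The 7 cells at that level averaged 1217 TPM of Ldha and 205 TPM of Ldhb and a balance of 3.81. Of these, 2 had no detected Ldhb, and they had the fewest detected genes of the class, 3041 and 2691. The other 9 cells averaged 772 TPM of Ldha and 371 TPM of Ldhb and a balance of 1.13, with Ldha higher in 8 of the 9; by pool their balance was -0.09 in pool 1, from 3 cells, and 1.74 in pool 2, from 6. In pool 1 these cells therefore did not lie above the excitatory neuron-like mean of 0.11. Without the 7 cells the difference from excitatory neuron-like cells was 1.31, and among cells with 3500 to 5500 detected genes, 9 of the 16, it was 1.84. The interneuron-like difference was -1.69 among cells with 3500 to 5500 detected genes. The parts that neuronal RNA and undetected Ldhb in these libraries have in the balance were not tested.

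**Figure D1:**
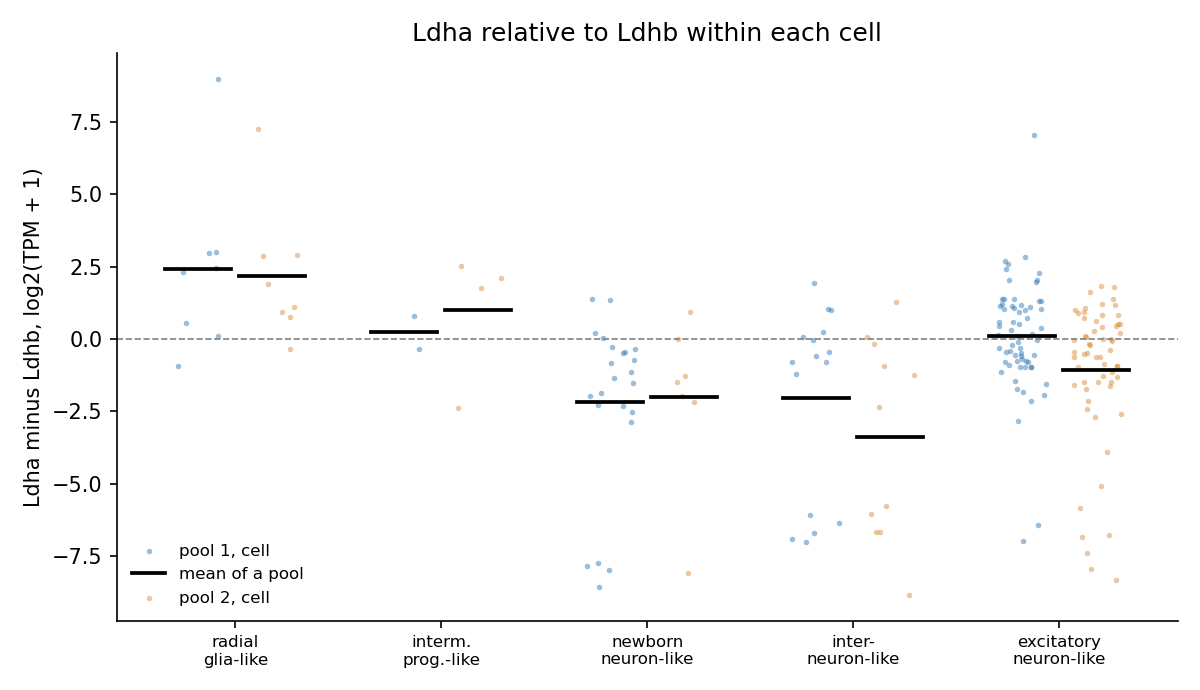
Ldha minus Ldhb, as log2(TPM + 1), in each cell (points, coloured by pool), by class, with the mean of each pool as a black bar and 0 (equal levels) dashed. Pool means are 2.43 and 2.17 in radial glia-like cells and 0.11 and -1.08 in excitatory neuron-like cells, and radial glia-like cells range from -0.95 to 9.0.

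The letter A or B in the cell names, whose meaning the labels do not give, was unevenly spread over classes, so the balance is given within it. Among cells with letter A, radial glia-like cells averaged 2.45 in pool 1 (7 cells) and 1.5 in pool 2 (6 cells), and interneuron-like cells -2.65 (3 cells) and -2.97 (7 cells), against 0.53 (27 cells) and -1.16 (42 cells) in excitatory neuron-like cells. Among cells with letter B, interneuron-like cells averaged -1.90 in pool 1 (13 cells) and -4.14 in pool 2 (4 cells), against -0.19 (38 cells) and -0.88 (18 cells) in excitatory neuron-like cells. Within both letters and both pools the interneuron-like mean was the lower one. Newborn neuron-like cells with letter A averaged -2.41 in pool 1 (10 cells) and -0.998 in pool 2 (6 cells). In pool 2 they were thus not below excitatory neuron-like cells of that letter. With letter B, newborn neuron-like cells averaged -2.01 in pool 1 (13 cells) and stood at -8.08 in pool 2, from 1 cell. Radial glia-like cells with letter B numbered 1 and 2, too few for a comparison.

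Tested gene by gene over all features, none of the 9 genes passed in radial glia-like cells set against excitatory neuron-like ones. Calls needed an adjusted p below 0.05 (limma on class means per pool, Benjamini-Hochberg) together with a log2 change of 1 or more either way, and 6.29% of the 10692 features tested were called in this comparison. The largest values were Aldoa at 1.90 ± 0.57 (SE, adjusted p = 0.0695), Ldha at 1.59 ± 0.51 (adjusted p = 0.0857) and Ldhb at -1.19 ± 0.39 (adjusted p = 0.0924). The sign of each was shared by both pools. Ldhb came to -0.07 without the 7 radial glia-like cells rich in Neurod6 and to -0.17 among cells with 3500 to 5500 detected genes, whereas Ldha came to 1.24 and 1.67 and Aldoa to 1.53 and 1.84 under these settings. Of the 9 genes 5 were positive, with a median log2 difference of 0.16, against a median of -0.07 over all features.

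In interneuron-like against excitatory neuron-like cells, Ldha was the 1 gene of the 9 that was called, where 0.393% of all features were. Its log2 difference was -2.84 ± 0.51 (adjusted p = 0.0299), with -2.84 in pool 1 and -2.83 in pool 2. Ldha was detected in 17 of 27 interneuron-like cells (63%, exact interval 42.4 to 80.6%), against all but 7 of 125 excitatory neuron-like cells (94.4%, 88.8 to 97.7%). Where it was detected, its median was 244 TPM in interneuron-like cells, against 408 TPM in excitatory neuron-like cells. The lower mean thus came both from cells without detected Ldha and from lower levels in the rest. Markers of excitatory neurons were present in the interneuron-like class, with Neurod6 at 100 TPM or more in 13 of 27 cells and a median summed level of 386 TPM (range 4.4 to 1835), against 2186 TPM in excitatory neuron-like cells (range 382 to 7180), and their part in the result was not tested. Interneuron-like cells also had fewer detected genes, and among cells with 3500 to 5500 of them, which keeps 12 of 27 interneuron-like cells, the difference was -1.82 (adjusted p = 0.479). The call was lost whenever 1 of the 4 class and pool profiles was left out (adjusted p = 0.0583 to 0.830), and the values then ranged from -3.30 to -2.37.

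Other members of the pathway had lower values there without passing the test. Aldoa averaged 179 and 81.3 TPM in interneuron-like cells of pools 1 and 2, against 351 and 346 TPM in excitatory neuron-like cells, a log2 difference of -2.80 ± 0.57 (adjusted p = 0.0658). Tpi1, at -1.58 ± 0.52 (adjusted p = 0.412), and Pgk1, at -1.03 ± 0.69 (adjusted p = 0.924), had the same sign in both pools. In all, 8 of the 9 genes had a negative log2 difference, with a median of -0.68, against -0.09 over all features, of which 40.6% were positive. The summed level of the 9 genes had a median of 1125 TPM in interneuron-like cells (range 6.44 to 2104), against 1819 TPM in excitatory neuron-like cells (range 704 to 3606). It was 2591 TPM in radial glia-like, 2376 TPM in intermediate progenitor-like and 2037 TPM in newborn neuron-like cells.

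In newborn neuron-like against excitatory neuron-like cells none of the 9 genes was called, where 0.0187% of all features were (2 genes, and 0 with the pool as a block in the fit); 697 features, none of them among the 9, had an unadjusted p below 0.05. Ldhb stood at 0.75 ± 0.39 (adjusted p = 0.821) and Ldha at -0.86 ± 0.51 (adjusted p = 0.854), each with the same sign in both pools. The class also held markers of intermediate progenitors, with a median summed level of 327 TPM (range 20.1 to 1641), against 19.8 TPM in excitatory neuron-like cells (range 0 to 640), and Eomes was detected in 19 and Neurog2 in 16 of its 30 cells. The part of these markers in the values was not tested. All 30 newborn neuron-like cells had Ldhb detected, from 160 to 1194 TPM with a median of 760.2 TPM, against a median of 414 TPM and a range of 3.01 to 1274 TPM in excitatory neuron-like cells. Both newborn neuron-like pool means of Ldhb were the highest of any class, and the single cells overlapped with those of every other class.

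**Figure D2:**
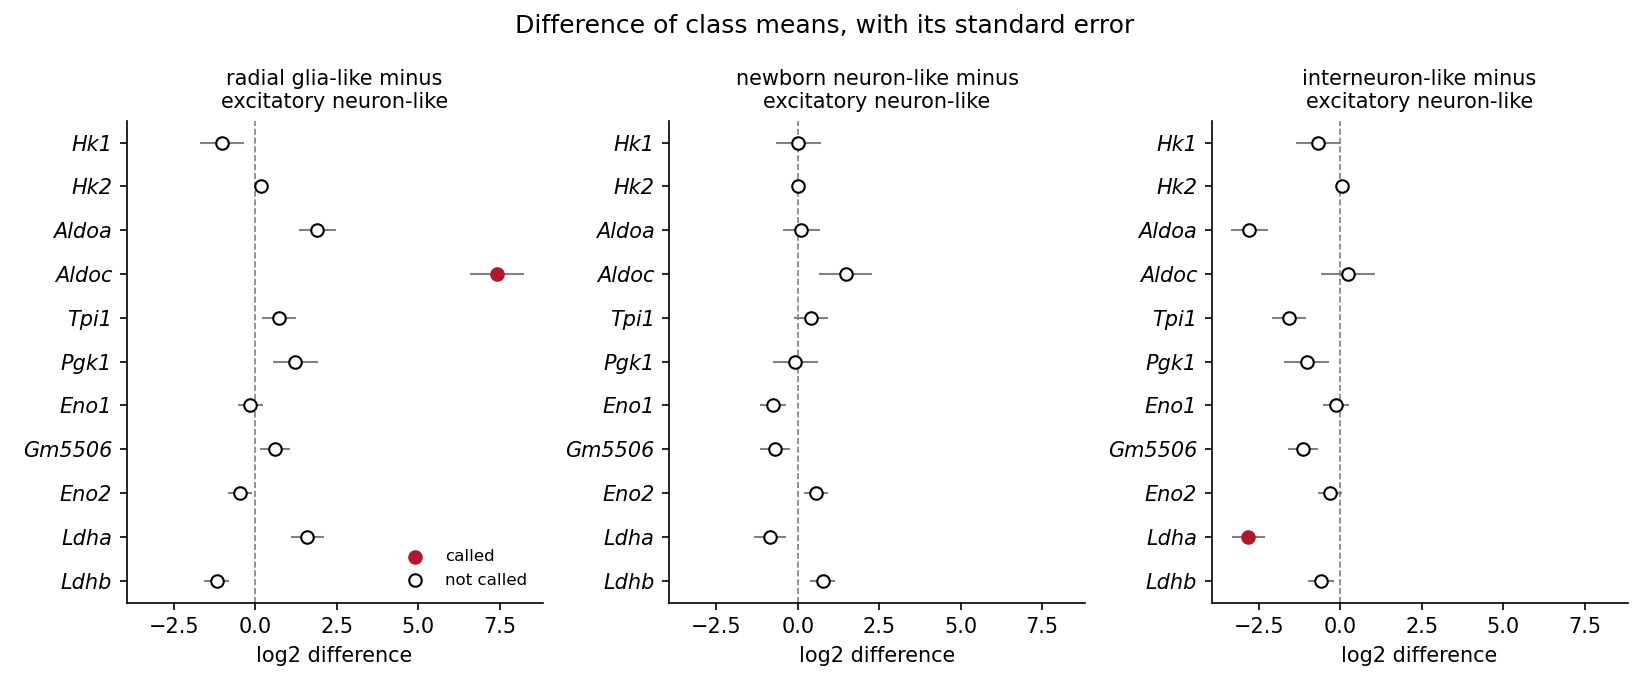
Log2 difference of class means (horizontal axis) for each gene, with its standard error from the fit as a bar, in 3 comparisons with excitatory neuron-like cells. Red points passed the test (Aldoc at 7.41 in radial glia-like cells and Ldha at -2.84 in interneuron-like cells), and white points did not.

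Hexokinase traps glucose in the cell as glucose 6-phosphate. Hk1 was the form seen in neurons and Hk2 was almost absent from them. Hk1 was detected in 4 of 16 radial glia-like cells (25%, 7.27 to 52.4%), 3 of 6 intermediate progenitor-like, 14 of 30 newborn neuron-like, 7 of 27 interneuron-like and 67 of 125 excitatory neuron-like cells (53.6%, 44.5 to 62.6%). Its means per pool were 47.7 and 1.8 TPM in radial glia-like cells, where pool 2 was at the floor level but for 1 cell, against 37.4 and 29.9 TPM in excitatory neuron-like cells. In radial glia-like cells of pool 1 the detected values, 40.6, 130 and 202 TPM, were all in cells with Neurod6 at 100 TPM or more. The log2 difference of -1.03 ± 0.68 between these classes did not pass (adjusted p = 0.417), and without 1 profile at a time it ranged from -1.99 to -0.07.

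Hk2 was detected in 14 of 221 cells. They were 4 of 16 radial glia-like cells (25%, 7.27 to 52.4%), 2 of 6 intermediate progenitor-like cells, 6 of 125 excitatory neuron-like cells (4.80%, 1.78 to 10.2%) and 2 unnamed cells. It was detected in 0 of 30 newborn neuron-like cells (exact interval up to 11.6%) and in 0 of 27 interneuron-like cells (up to 12.8%). The levels were low. The 4 radial glia-like cells had 2.94, 5.72, 2.38 and 16.1 TPM, and the 2 intermediate progenitor-like cells had 1.90 and 23 TPM. Among the 7 radial glia-like cells with either hexokinase, Hk1 was higher in 4 and Hk2 in 3, whereas among the 70 such excitatory neuron-like cells Hk1 was higher in 67. The mean log2 difference, 0.16 ± 0.14, was not called (adjusted p = 0.540). Intervals here cover counting error only, and cells of 1 pool share animals.

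Aldolase splits fructose 1,6-bisphosphate into its 3-carbon products. Aldoa, its muscle and general form, was detected in 16 of 16 radial glia-like cells, 25 of 30 newborn neuron-like, 18 of 27 interneuron-like and all but 12 of 125 excitatory neuron-like cells. Its lowest, median and highest values were 81.5, 663 and 3338 TPM in radial glia-like cells, against 1.61, 332 and 1286 TPM in excitatory neuron-like cells. Mean log2 levels were 9.22 and 9.19 in radial glia-like pools, against 7.41 and 7.21 in excitatory neuron-like pools, so the pools did not overlap, although the test was not passed.

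The brain form of aldolase, Aldoc, is not among the 9 genes and is known as a gene of astrocytes and their precursors. It was among the 10 leading genes of the radial glia-like cluster, so its difference describes that class rather than testing it. Aldoc ranged from 2.05 to 7698 TPM in radial glia-like cells, with a median of 1863 TPM and detection in 15 of 16, against 1.33 to 1075 TPM in excitatory neuron-like cells, with a median of 1.95 TPM and detection in 47 of 125. The log2 difference was 7.41 ± 0.82 (adjusted p = 0.000894), with 7.81 in pool 1 and 7.02 in pool 2. It was called in all 16 other settings tried and with each of the 4 profiles left out, from 4.44 to 8.37. Aldoc exceeded Aldoa in 11 of 16 radial glia-like cells, 2 of 6 intermediate progenitor-like cells, 3 of 26 newborn neuron-like, 6 of 22 interneuron-like and 13 of the excitatory neuron-like cells with either gene detected, in 88.7% of which Aldoa was higher. In the 1 radial glia-like cell without Aldoc, from pool 2, Ldhb was not detected either, Neurod6 stood at 772 TPM and 2691 genes were detected.

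Tpi1, triosephosphate isomerase, interconverts the products of aldolase, and Pgk1, phosphoglycerate kinase, makes the first ATP of the pathway. Tpi1 averaged 609 and 567 TPM in radial glia-like pools, 386 and 608 TPM in newborn neuron-like pools, 270.4 and 380.3 TPM in interneuron-like pools, and 452 and 458 TPM in excitatory neuron-like pools. In radial glia-like cells its log2 difference was 0.72 ± 0.52 (adjusted p = 0.458), of which 0.02 came in pool 1 and 1.42 in pool 2. Pgk1 averaged 222 and 129 TPM in radial glia-like pools, against 72.7 and 82 TPM in excitatory neuron-like pools. Its log2 difference of 1.22 ± 0.69 (adjusted p = 0.335) rested on pool 1, at 2.43, while pool 2 gave 0.02. In pool 2 Pgk1 was not detected in 2 of 8 radial glia-like cells. In radial glia-like cells neither log2 difference thus exceeded the spread between its pool values. In interneuron-like cells the pool differences were -2.02 and -1.14 for Tpi1 and -1.07 and -0.99 for Pgk1, neither called.

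**Figure D3:**
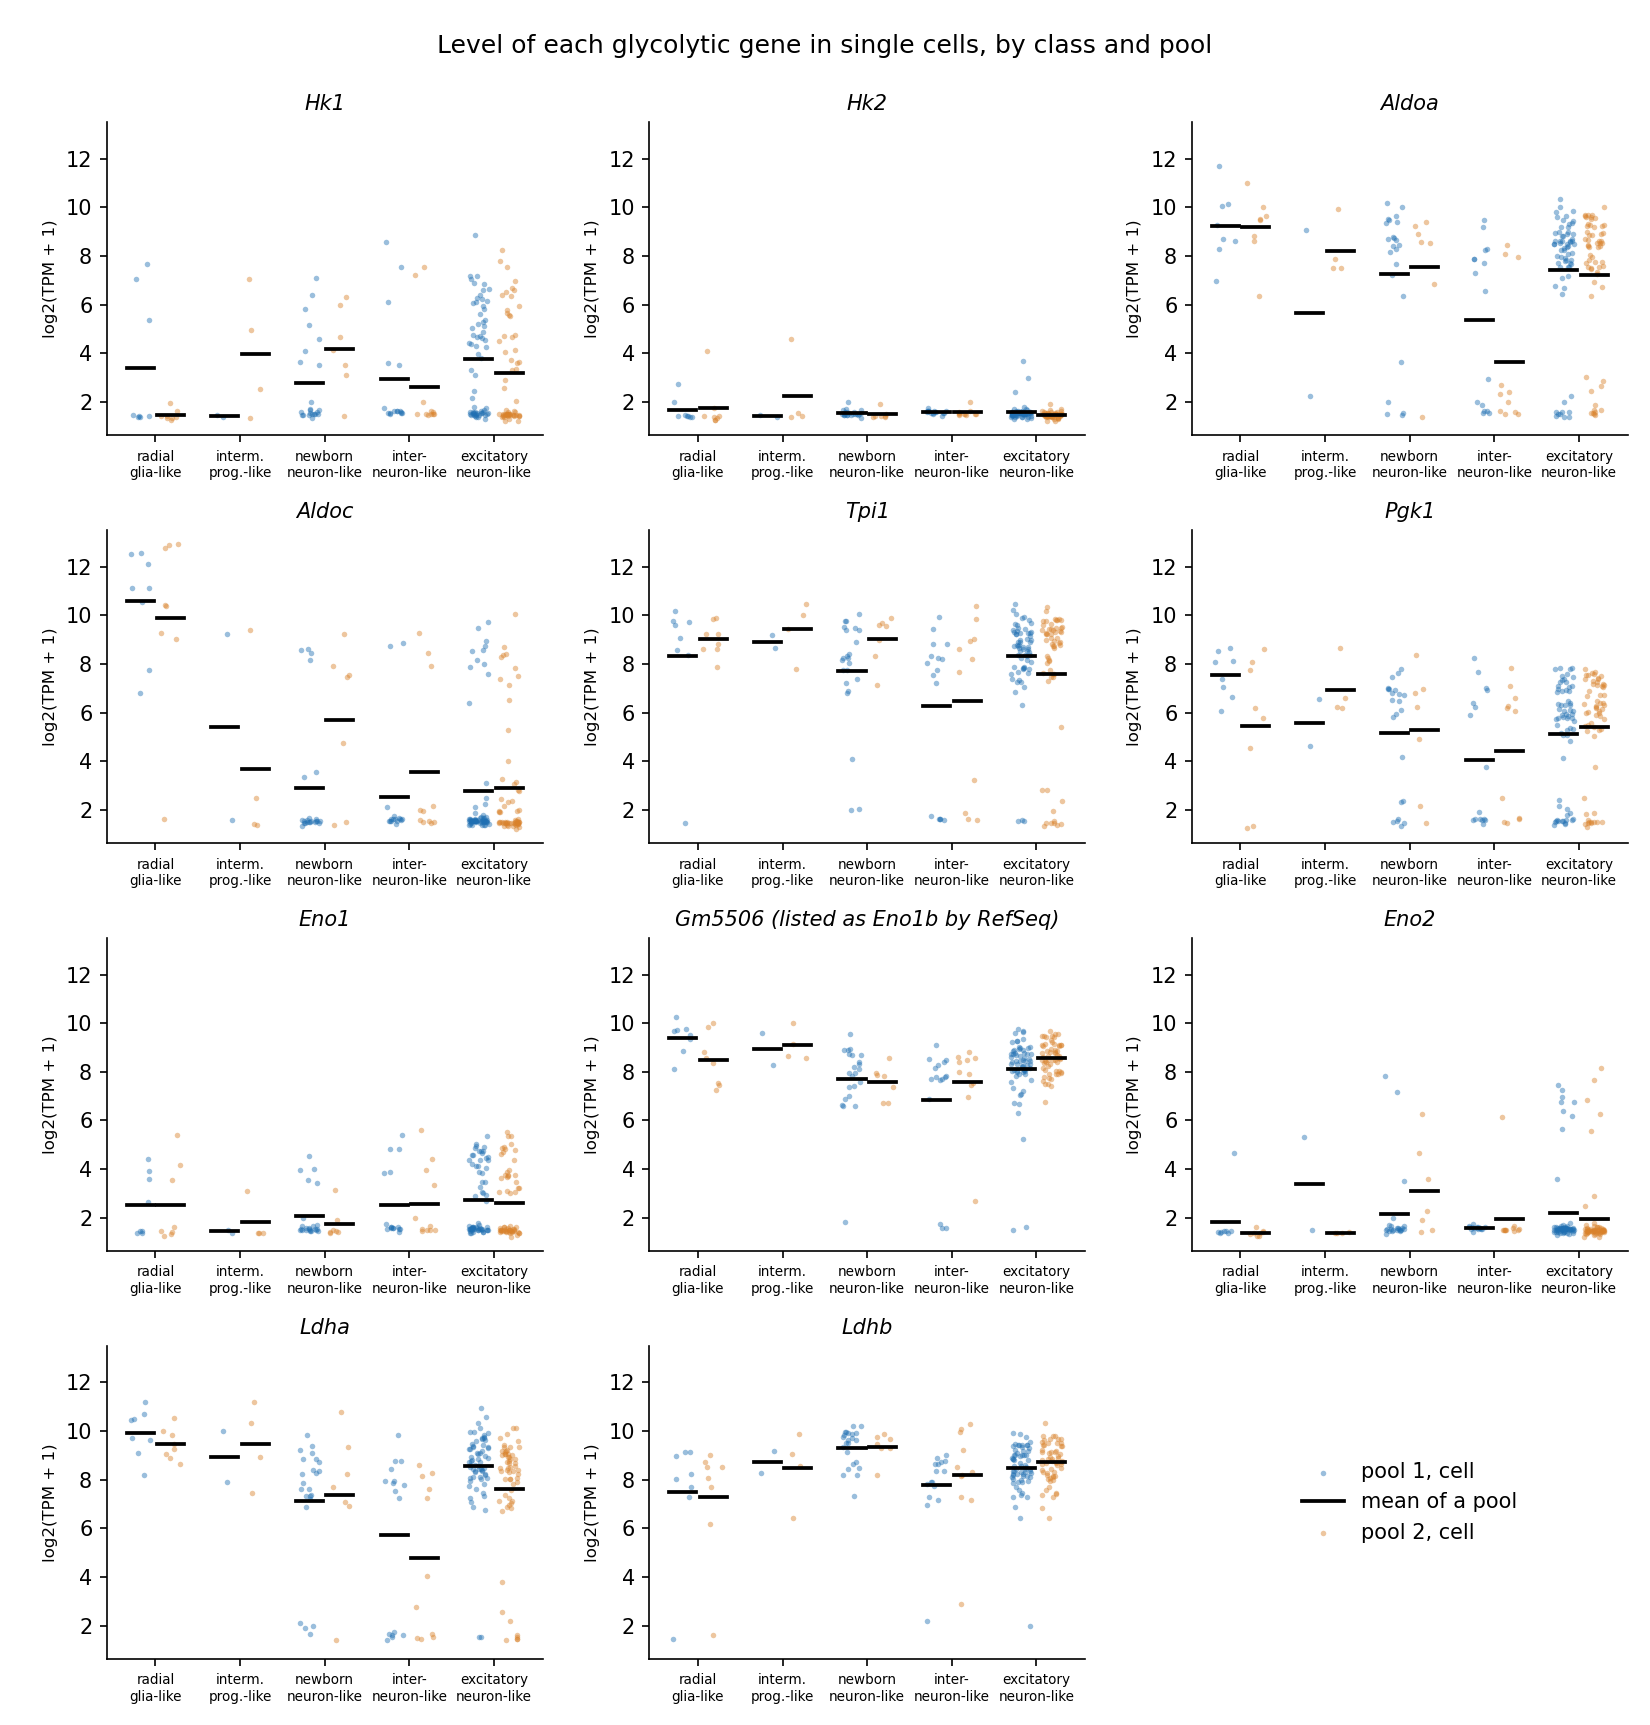
Level of each gene as log2(TPM + 1) in every cell (points, coloured by pool) of the 5 classes, with the mean of each pool as a black bar; points near 1.5 are cells in which the gene was at the floor. Aldoa and Ldha are detected in all 16 radial glia-like cells, and Hk2 and Eno2 are at the floor in most cells of all classes. In every class Gm5506 is high in most cells and Eno1 is low.

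Enolase makes phosphoenolpyruvate. As deposited, Eno1, the general form and usually an abundant transcript, was low or missing in every class. It was detected in 7 of 16 radial glia-like cells, 1 of 6 intermediate progenitor-like, 6 of 30 newborn neuron-like, 9 of 27 interneuron-like and 56 of 125 excitatory neuron-like cells, with class means between 2.62 and 9.48 TPM and no value above 47.3 TPM. Tpi1, one step of the same pathway, averaged 315 to 724 TPM. No difference of Eno1 from excitatory neuron-like cells was called (log2 differences from -0.77 to -0.13, adjusted p = 0.815 to 0.999).

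Another feature of the table held the enolase signal. Gm5506, which RefSeq names Eno1b, was detected in 218 of 221 cells at a mean of 368 TPM, against 8.66 TPM for Eno1. It was the higher of the pair in 217 of these 218 cells. Of the 50-base words of the longest Eno1 transcript (GENCODE M21), 72.2% also occur in transcripts of other genes, among them 70.5% in Eno1b and 52.8% in the pseudogene Gm4735, sets that overlap. The files do not say how reads that match both genes were shared out, so Eno1 and Gm5506 cannot be told apart, and the Eno1 values should not be read as the level of the enzyme. This feature was looked up after the Eno1 values had been seen. The same share was 68% for Pgk1, 27% for Ldhb, 16.6% for Ldha, 13.5% for Aldoa and 7.51% for Tpi1, and how those reads were shared out is likewise not given; it was 0.0364% for Eno2 and 0 for Hk1, Hk2 and Aldoc.

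Gm5506 had its lowest, median and highest values at 151, 555 and 1214 TPM in radial glia-like cells, 310, 481 and 1029 TPM in intermediate progenitor-like cells, 2.50, 240.2 and 753 TPM in newborn neuron-like cells, 1.96, 229 and 546 TPM in interneuron-like cells, and 1.85, 358 and 874 TPM in excitatory neuron-like cells. The order of its class means, progenitors above excitatory neuron-like cells and these above newborn neuron-like and interneuron-like cells, was that of Ldha, although neighbours in it overlapped. The log2 differences were 0.60 ± 0.47 in radial glia-like cells (adjusted p = 0.497; 1.29 in pool 1 and -0.10 in pool 2), -0.71 ± 0.47 in newborn neuron-like cells (adjusted p = 0.890) and -1.14 ± 0.47 in interneuron-like cells (adjusted p = 0.631). None was called, and the radial glia-like pools had opposite signs.

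Eno2, which shares almost no sequence with other genes, was detected in 32 of 221 cells. They were 1 of 16 radial glia-like cells (6.25%, 0.158 to 30.2%), 1 of 6 intermediate progenitor-like, 7 of 30 newborn neuron-like (23.3%, 9.93 to 42.3%), 1 of 27 interneuron-like and 17 of 125 excitatory neuron-like cells (13.6%, 8.13 to 20.9%). The intervals overlap. With Gm5506 added to Eno1, the Eno1 side was higher than Eno2 in 16 of 16 radial glia-like cells, 28 of 30 newborn neuron-like, 24 of 25 interneuron-like and all but 2 of 124 excitatory neuron-like cells with either detected. Neurons as well as progenitors thus carried more of the summed Eno1 and Gm5506 signal than of Eno2. With Eno1 alone, it exceeded Eno2 in 6 of 7 radial glia-like cells and 5 of 12 newborn neuron-like cells with either detected. The same held in 9 of 10 such interneuron-like and 53 of 68 such excitatory neuron-like cells. The log2 balance with Gm5506 added averaged 7.59 and 7.12 in radial glia-like pools, 5.55 and 4.50 in newborn neuron-like pools and 5.27 and 5.68 in interneuron-like pools, against 5.97 and 6.64 in excitatory neuron-like pools. The difference was 1.05 ± 0.81 for radial glia-like cells, -1.28 ± 1.22 for newborn neuron-like cells and -0.83 ± 0.19 for interneuron-like cells (SD of pool differences). Exact permutation p was 0.33, the smallest possible, for each.

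**Figure D4:**
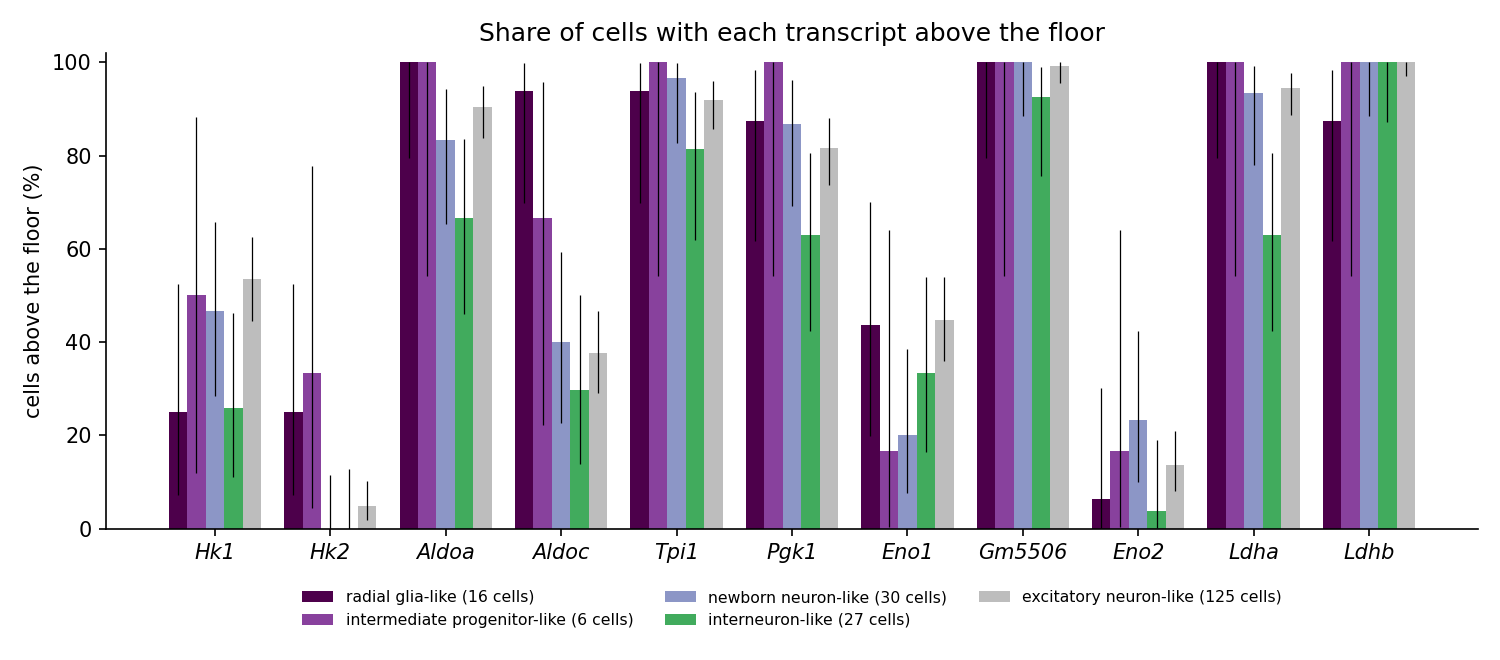
Share of cells with each transcript above the floor of its cell, by class (bars), with exact 95% intervals that cover counting error only. Hk1, Hk2, Eno1 and Eno2 are detected in a minority of cells in most classes, and Ldha is detected in 63% of interneuron-like cells against 94.4% of excitatory neuron-like cells.

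The 6 intermediate progenitor-like cells were too few in pool 1 for a test. A division into 12 clusters gave this name to 16 cells, with 9 and 7 in the pools, of which 6 were shared with the class above. In a fit that held this class too, none of the 9 genes was called in it against excitatory neuron-like cells (adjusted p = 0.477 to 0.969). Radial glia-like cells against this class had Ldhb at -1.64 ± 0.41 (adjusted p = 0.0667) and Ldha at 0.79 ± 0.55 (adjusted p = 0.569), neither called, and Aldoc at 6.09 ± 0.81 (adjusted p = 0.00390).

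Counts of calls among other genes of the pathway were read against the 6.29% of all features called. Of the 8 other glycolysis enzymes tested, Aldoc alone was called in radial glia-like cells set against excitatory neuron-like ones. Pgam1, phosphoglycerate mutase, averaged 378 and 411 TPM in radial glia-like cells, against 278 and 209 TPM in excitatory neuron-like cells, a log2 difference of 1.11 ± 0.49 (adjusted p = 0.207). Gpi1, glucose 6-phosphate isomerase, was at 1.0 ± 0.57 (adjusted p = 0.340). Pyruvate kinase, listed as Pkm2, was at -0.51 ± 0.56 (adjusted p = 0.646), and the phosphofructokinases Pfkl, Pfkm and Pfkp lay at 0.45, -1.04 and -0.46 (adjusted p = 0.437 to 0.735). Gapdh is not analysed here.

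Of 14 genes of lactate and pyruvate fate, Pcx, pyruvate carboxylase, known as an enzyme of astrocytes in the brain, was higher in radial glia-like cells, at 1.74 ± 0.45 (adjusted p = 0.0406). It was detected in 8 of 16 radial glia-like cells, against 16 of 125 excitatory neuron-like cells. Of 11 genes of glucose uptake and flux control, Egln3, a prolyl hydroxylase that senses oxygen and is itself induced by hypoxia, was higher at 1.8 ± 0.37 (adjusted p = 0.0146), with detection in 9 of 16 radial glia-like against 7 of 125 excitatory neuron-like cells. None of 9 hypoxia-inducible genes outside glycolysis was called, with 3 of 9 positive and a median log2 difference of -0.11. Of the 7 pentose phosphate enzymes none was called either, with 6 of 7 positive and a median of 1.06. Over all features 46.1% were positive, with a median of -0.07. Of 8 cytosolic housekeeping genes, B2m, the light chain of MHC class I, was called, at 3.18 ± 0.53 (adjusted p = 0.00472). In radial glia-like cells each of the 6 lists thus held 0 or 1 called gene among the 7 to 14 tested. In lists this short, such counts cannot be told apart from the 6.29% of all features called there. In newborn neuron-like and in interneuron-like against excitatory neuron-like cells no gene of these 6 lists was called, where 0.0187% and 0.393% of all features were, so that these counts set the lists apart from no other genes.

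Across single cells the genes hardly followed each other. Over the 221 cells the Pearson r of log2 levels was 0.25 between Ldha and Aldoa and 0.05 between Ldha and Ldhb, and within the 125 excitatory neuron-like cells it was -0.03 and -0.02. These values share libraries and depth: r between Ldha and the number of detected genes was 0.39 over all cells. The tested genes most like each isoenzyme over the 221 cells were Nop10, X1600012F09Rik and Slmo2 for Ldha (r up to 0.35), Psma7, Maf1 and Mettl11a for Ldhb (up to 0.38), Stmn4, Gm5506 and Crtac1 for Eno1 (up to 0.26), Celsr3, Kctd3 and Fam98c for Eno2 (up to 0.33) and Fblim1, Nrgn and Npy1r for Hk1 (up to 0.27). For Hk2 they were Egfr, Slc25a26 and Gm5523 (up to 0.42), and the leading value there rested on 4 cells with both Hk2 and Egfr.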

How the data were processed

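Single-cell cDNA was made with a template-switching kit after capture on a Fluidigm C1 chip and sequenced as transposase libraries, per the labels' protocols. The deposited TPM values were made by the authors, and per the submitters' processing notes TopHat2 2.0.14, Bowtie2 2.2.6, Cufflinks 2.2.1 and the assembly mm10 were used. No strand setting is given in the sources used here. Values of every cell sum to 1000000.

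Levels were taken as log2(TPM + 1). Cells were divided into 10 clusters (Ward linkage, first 10 principal components of 82 standardized markers). Each cluster was named for the class whose markers were highest, among classes with at least 3 markers detected in 50% of its cells, provided that its 10 leading genes held no more markers of another class. Blood, vessel and meningeal names were not given where Neurod6 was detected in 50% of cells. The rule was set after the clusters were seen, and doublets were not removed (19 cells held both Xist and a Y-linked transcript).

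Pools served as replicates (2 per class). Class means per pool were fitted with limma 3.58.1 in R 4.3.3 (intensity trend, robust variances, 8 profiles, 4 residual degrees of freedom, two-sided, Benjamini-Hochberg over 10692 features detected in at least 10 cells, markers and spike-ins left out). A class and pool needed at least 4 cells. The p-values cover the spread between these 2 pools and treat the classes as given, although classes were formed from the same cells. Fold changes are on the log2(TPM + 1) scale and understate those of low genes. The scripts were tested on simulated data.

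Classes of a pool share animals, so the pool pairs them. Deviations of pool 2 from class means correlated at -0.000601 to 0.0627 across genes, and pool was left out of the fit. As a block it left 653, 0 and 40 calls for radial glia-like, newborn neuron-like and interneuron-like against excitatory neuron-like cells, against 672, 2 and 42 without it.

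The 9 genes, the markers and the lists were chosen with earlier results of these data known. Named are the 9 genes, fixed isoenzymes and other enzymes of the pathway whatever their values, genes of each list that passed the test (at most 4 per comparison), and the 3 tested genes most like each paired isoenzyme. Gm5506 was added after the values were seen. Sequences were read from RefSeq (GRCm38.p6) and GENCODE M21.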

Additional observations from a re-analysis of the deposited data

How the results depend on the processing

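Choices were changed one at a time, 16 settings in all beside leaving out 1 class and pool profile at a time; 3 settings were chosen after the data were seen (cells with 3500 to 5500 detected genes, cells without 1000 TPM or more of globin, and Gm5506 added to Eno1). The exception is the setting without radial glia-like cells rich in Neurod6, which also lowered the least number of cells in a profile to 2, against 4 elsewhere, so its counts of calls cannot be put down to either choice. Ldha kept its sign in interneuron-like against excitatory neuron-like cells in 16 of 16 settings and was called in 9, and Aldoa kept its sign in 16 and was called in 3. In radial glia-like cells set against excitatory neuron-like ones Ldha, Aldoa, Pgk1 and Ldhb kept their signs in 16 of 16. Ldha was called there with clusters from the 1000 most variable genes, and Aldoa with profiles weighted by cells, 1 gene of the 9 each.

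Calls in radial glia-like cells set against excitatory neuron-like ones fell to 421 without the filter on low values, 223 with the log2 of the mean, 416 with 12 clusters, 316 among cells with 3500 to 5500 detected genes and 8 with the marker gate, and ranged from 32 to 819 with a profile left out. In interneuron-like cells they were 11, 0, 15, 3 and 70 under the same settings in that order, 1.1e+02 with clusters from variable genes, 65 with each suffix of a pool as a unit, 216 with weights, 0 without the radial glia-like cells rich in Neurod6, and 0 to 26 with a profile left out. Of the 9 genes, 0 were called in interneuron-like cells with a pseudocount of 10, without the filter, with the log2 of the mean, with 12 clusters, with quantile normalization, without the cells rich in Neurod6 and at 3500 to 5500 genes, 2 with variable-gene clusters, suffix units or weights, and 0 to 1 with a profile left out. In newborn neuron-like cells the 2 calls became 0 without the filter, with the log2 of the mean, with floor values at 0, with variable-gene clusters, with the pool as replicate block, with quantile normalization, without the cells rich in Neurod6, at 3500 to 5500 genes and with any profile left out, 1 with the marker gate, 5 with 12 clusters, 7 with suffix units, 84 with weights and 4 without globin.

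Ldha minus Ldhb kept its sign throughout. In radial glia-like cells it moved to 1.70 (log2 of the mean), 1.34 (marker gate), 1.31 (without cells rich in Neurod6) and 1.84 (3500 to 5500 genes). In interneuron-like cells it moved to -1.66 (pseudocount 10), -1.20 (log2 of the mean), -2.73 (floor at 0), -2.85 (marker gate), -1.69 (3500 to 5500 genes) and -2.49 (suffix units). In newborn neuron-like cells it moved to -0.048 (variable-gene clusters) and -2.95 (suffix units). Reversed were Hk1 minus Hk2 in interneuron-like cells at 0.12 (log2 of the mean) and 0.33 (variable-gene clusters) and in radial glia-like cells at 0.088 (marker gate), and Eno1 minus Eno2 in radial glia-like cells at -0.24 (variable-gene clusters) and -0.13 (suffix units). Signs also changed for 3 other differences. Eno1 minus Eno2 in interneuron-like cells (0.18) was positive in 11 of 13 settings, with a lowest value of -0.83. Aldoa minus Aldoc in newborn neuron-like cells (-1.36) was positive in 1 of 12, at 0.39. Hk1 minus Hk2 in newborn neuron-like cells (0.02) was positive in 7 of 12. The causes were not tested. Comparisons of intermediate progenitor-like cells could be made with 12 clusters only. With 2 pools, a pair difference cannot pass a permutation test.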
